A study of Mus musculus with 8 samples.

Results

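The genes described here are the nuclear genes of mitochondrial ribosomal proteins in group 2 innate lymphoid cells (ILC2s) sorted from mouse lung. Members were all genes present in both deposited expression tables whose symbol is Mrpl or Mrps followed by a number, leaving out 6 symbols marked as pseudogenes. The rule found 78 genes, 49 with an Mrpl symbol and 29 with an Mrps symbol, out of 14956 genes that both tables hold. No expression value entered the choice.

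All cells came from wild type C57BL/6 mice, whose age the labels do not give. For bulk RNA-seq, female mice received the alarmin IL-33 by the nose for 3 days together with either PBS vehicle (IL-33 plus PBS, 3 libraries) or dopamine (IL-33 plus dopamine, 3 libraries), and each full-length Smart-Seq2 library was made from 2000 sorted cells. For single-cell RNA-seq, sorted ILC2s of male mice were labelled with hashtag antibodies, pooled and run as 3′ droplet libraries. For mice given IL-33, the labels state 3 days here as well. The deposited cell table assigns 9076 cells to 8 hashtags, of which hashtags 1 and 2 are called PBS, 3 to 5 IL-33 and 6 to 8 IL-33_DA (dopamine). The study's title names mitochondrial activity as what dopamine dampens, so the question put to these genes is whether the machinery of mitochondrial translation moved with dopamine or with IL-33. The labels do not say how many mice stand behind a library or a hashtag, so p-values measure the spread between these samples.

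The mitochondrial ribosome translates the few mRNAs that mitochondrial DNA encodes, all of them for subunits of the respiratory chain and ATP synthase. Its rRNAs come from mitochondrial DNA, whereas its proteins are encoded in the nucleus, made in the cytosol and imported. Part of the proteins descend from the bacterial ribosome and part were added in mitochondria. ILC2s are tissue-resident lymphocytes without antigen receptors that answer IL-33 by making type 2 cytokines, a response that draws on mitochondrial respiration. By textbook assignment the members fell into 30 large-subunit proteins with a bacterial relative, 21 large-subunit proteins specific to mitochondria, 16 small-subunit proteins with a bacterial relative and 10 small-subunit proteins specific to mitochondria. The remaining gene, Mrps36, codes for a subunit of the 2-oxoglutarate dehydrogenase complex and carries the symbol by history. Mrps30 and Mrps18a were counted with the large subunit, where their proteins sit. Mrps18b is related to bacterial S18 but was counted with the small-subunit proteins specific to mitochondria.

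Promoters of 4 genes are shown because they belong to the members on which the results turn. Mrps12 had the smallest bulk p-value for dopamine and Mrpl36 the next, Mrpl34 was the single member called for IL-33, and Mrpl45 stood next to it. Each sequence runs 5′ to 3′ on the gene's strand, from 250 bases before to 50 bases after the start, and comes from RefSeq on GRCm38.p6. The windows lie at chr7:28741772-28742071 on the minus strand for Mrps12, at chr8:71464676-71464975 on the plus strand for Mrpl34, at chr13:73330759-73331058 on the plus strand for Mrpl36 and at chr11:97315466-97315765 on the plus strand for Mrpl45. Capitals mark matches on either strand to the ETS motif in Mrps12 and Mrpl34, to an E box followed by the YY1 motif in Mrpl36, and to the NRF1 motif in Mrpl45.
Mrps12: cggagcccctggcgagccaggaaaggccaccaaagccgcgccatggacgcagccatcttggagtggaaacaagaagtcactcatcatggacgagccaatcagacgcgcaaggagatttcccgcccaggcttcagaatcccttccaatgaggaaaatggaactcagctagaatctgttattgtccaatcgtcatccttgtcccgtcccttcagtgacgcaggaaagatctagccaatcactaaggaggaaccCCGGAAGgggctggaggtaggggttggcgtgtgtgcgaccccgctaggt
Mrpl34: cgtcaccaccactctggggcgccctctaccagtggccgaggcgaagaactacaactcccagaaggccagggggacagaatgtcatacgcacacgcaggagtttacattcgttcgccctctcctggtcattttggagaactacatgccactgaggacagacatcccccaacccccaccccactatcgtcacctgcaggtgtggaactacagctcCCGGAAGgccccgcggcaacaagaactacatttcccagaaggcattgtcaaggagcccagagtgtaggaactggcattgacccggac
Mrpl36: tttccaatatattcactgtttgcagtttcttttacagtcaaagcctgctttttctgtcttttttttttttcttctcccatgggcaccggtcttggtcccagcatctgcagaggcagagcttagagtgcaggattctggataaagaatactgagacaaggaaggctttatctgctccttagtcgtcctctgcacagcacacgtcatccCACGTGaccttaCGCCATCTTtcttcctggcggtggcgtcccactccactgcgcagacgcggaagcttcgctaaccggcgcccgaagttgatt
Mrpl45: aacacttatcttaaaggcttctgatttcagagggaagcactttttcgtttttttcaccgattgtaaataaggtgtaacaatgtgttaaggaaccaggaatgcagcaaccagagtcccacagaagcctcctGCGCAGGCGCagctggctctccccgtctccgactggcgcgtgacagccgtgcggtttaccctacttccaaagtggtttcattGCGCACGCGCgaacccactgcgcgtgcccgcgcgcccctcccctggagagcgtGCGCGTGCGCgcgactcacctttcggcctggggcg

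Promoters were found for 69 of the 78 members, and each was searched on both strands for short words. Those of ETS factors, NRF1 and YY1 are known to recur in promoters of nuclear genes for mitochondrial proteins, and the others were searched beside them. The ETS motif (CCGGAAG), the core bound by GABP, stood in 37.7% of the members and in 22.5% of all genes tested in bulk that had a promoter. NRF1's palindromic motif stood in 18.8% of the members and 12.4% of those genes, and the YY1 motif (AAGATGGCG) in 11.6% and 4.05%. The GC box (GGGCGG) was found in 49.3% of the members against 69.0% of the genes tested, the CCAAT box (CCAAT) in 39.1% against 43.0%, the TATA box (TATAAA) in 7.25% against 8.67%, the CRE (TGACGTCA) in 2.90% against 3.88% and the E box of MYC (CACGTG) in 7.25% against 12.1%. A match describes the letters and not the binding of a factor. Transcripts of the factors behind these first motifs were measured in bulk. Gabpa, Nrf1 and Yy1 lay above the median change of all genes with dopamine, by 0.91, 0.44 and 0.39 on the log2 scale, and none passed the adjusted threshold in limma.

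The members are short genes that often start near a gene on the opposite strand. Their median longest coding transcript was 1327.5 bp, against 2997.5 bp over the protein-coding genes tested in bulk. A protein-coding gene started within 1000 bp on the opposite strand for 33 members, which is 42.3% of them, against 18.0% of all protein-coding genes tested. Mrps12, on chromosome 7, starts 172 bp from Sars2, the mitochondrial seryl-tRNA synthetase, and Mrpl54, on chromosome 10, starts 26 bp from Apba3. Mrpl36, on chromosome 13, starts in GENCODE at 73328513, where it overlaps the start of Ndufs6, a complex I subunit, by 29 bp. RefSeq places the start of Mrpl36 further downstream, so the promoter printed above lies inside the GENCODE gene and is not the stretch shared with Ndufs6. Mrpl46 and Mrps11 are each other's neighbours. The sources used here do not say whether the counting used strand, so values of the 36 members that overlap a gene on the other strand, Mrpl36, Mrpl13, Mrpl18, Mrpl21, Mrpl33, Mrpl45, Mrpl58 and Mrps34 among them, cannot be fully separated from that gene. On the same strand, Mrps6 overlaps Slc5a3, Mrps24 overlaps Urgcp, and Mrps34, which is also among the 36, overlaps Nme3, so their values are uncertain too.

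All 78 members passed the filter on low values in bulk (at least 1 TPM, a read share corrected for transcript length and scaled to a sum of 1000000, in at least 3 of 6 libraries), so none was lost to it. Mean TPM over the 6 libraries ran from 3.65 for Mrpl1 to 347 for Mrpl33, with a median of 47.8 TPM, against 11.4 TPM over all genes tested. The highest levels per length were those of the large-subunit genes Mrpl33, Mrpl52 (313 TPM) and Mrpl30 (237 TPM), then Mrps21 (206 TPM) of the small subunit and Mrpl54 (144 TPM). Mrpl33 held 382, 445 and 414 TPM with PBS and 322, 217 and 299 TPM with dopamine, so its lowest library lay above the mean of every other member but Mrpl52 and Mrpl30. Mrpl52 spanned 310 to 434 TPM with PBS and 189 to 331 TPM with dopamine, and this range overlapped that of Mrpl30, at 224 to 330 and 172 to 225 TPM. The 3 members related to bacterial S18 were at 75.1 ± 5.48 (Mrps18a), 44.0 ± 16.9 (Mrps18b) and 75.3 ± 31.0 TPM (Mrps18c; SD, n = 3) with PBS. The libraries of Mrps18c overlapped those of both others, whereas every PBS library of Mrps18a lay above those of Mrps18b.

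As a group the members made up a smaller share of the bulk transcriptome with dopamine. They took 0.564%, 0.605% and 0.491% of TPM in the IL-33 plus PBS libraries and 0.425%, 0.430% and 0.426% in the IL-33 plus dopamine libraries. Every dopamine library lay below every PBS library, at 0.427% ± 0.00294 against 0.553% ± 0.0579 (SD, n = 3 each). In a bulk sample, fewer cells of a type and less RNA per cell cannot be told apart. In the hashtags the share of UMIs was 0.307% and 0.324% with PBS, 0.357%, 0.335% and 0.360% with IL-33, and 0.348%, 0.329% and 0.308% with dopamine. Both PBS hashtags lay below all 3 IL-33 hashtags, whereas hashtag 6 with dopamine lay within the range of IL-33. The means were 0.316% ± 0.0123 (n = 2), 0.351% ± 0.0138 (n = 3) and 0.328% ± 0.0199 (SD, n = 3).

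**Figure D1:**
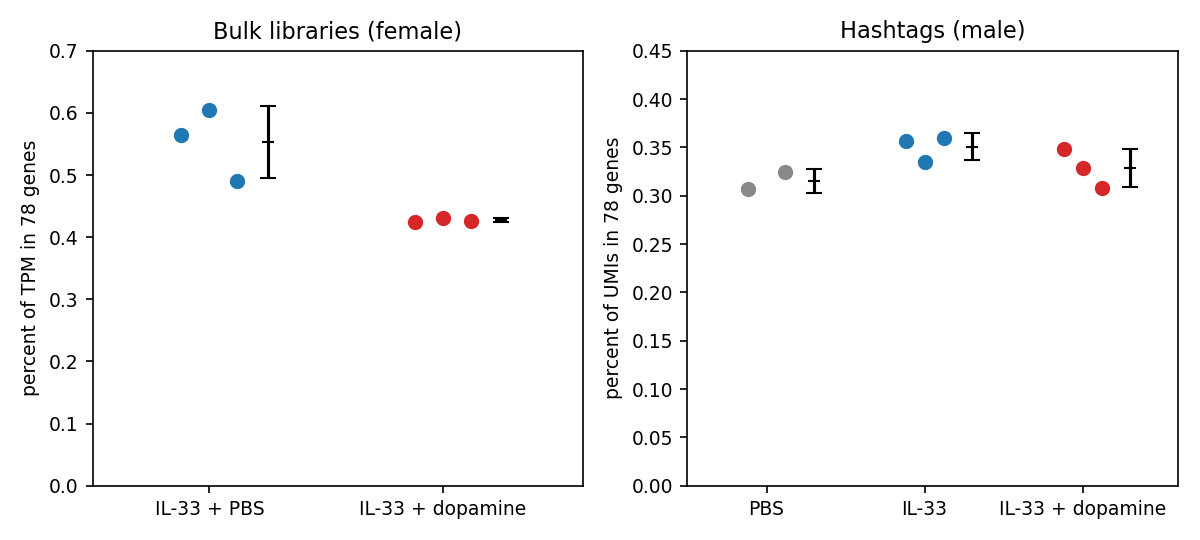
Share of all transcripts held by the 78 members, as percent of TPM per bulk library (left) and percent of UMIs per hashtag (right), 1 point per sample with the mean and SD beside it. The dopamine libraries sit at 0.425% to 0.430%, below the PBS libraries at 0.491% to 0.605%; in the hashtags the dopamine points, 0.308% to 0.348%, overlap the IL-33 points, 0.335% to 0.360%.

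Gene by gene, the bulk comparison of dopamine with PBS under IL-33 called no member. Testing used limma on log2(TPM + 1) with Benjamini-Hochberg adjustment over 11222 genes, in which 4 genes were called, 0.0356% of those tested; the smallest adjusted p of a member was 0.0832, for Mrps12. At an unadjusted p under 0.05, 11 members were lower and 0 higher, against 4.62% of all genes tested lower and 19.5% higher. Lower members at that p numbered 41 with median-of-ratios scaling (12.9% of all genes) and 31 with quantile normalization (11.1%). With detected genes per library as a covariate they numbered 4, against 349 of 11222 genes. Mean TPM was lower with dopamine for 64 members and higher for 14. In 17 members all 3 dopamine libraries lay below all 3 PBS libraries, against 6.57% of all genes tested, and in 1 member, Mrpl58, above them, against 23.5%. The first count was 44 with median-of-ratios scaling (15.2% of all genes) and 38 with quantile normalization (13.5%). More genes were higher than lower in the whole table, and the median change of all genes was 0.49 on the log2 scale. Relative to that median, 77 of 78 members were lower, with a member median of -0.83 (-0.35 with the covariate), beside 50% of all genes by construction; the exception was Mrps2 at 0.03, which became lower under median-of-ratios scaling. All changes below named relative are set against this median, and a fold change on the log2(TPM + 1) scale understates that of low genes.

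Medians of the 4 classes of ribosomal proteins all lay below the median of all genes. The median relative changes were -0.90 and -0.85 for the large-subunit proteins with a bacterial relative and those specific to mitochondria, and -0.79 and -0.65 for the corresponding small-subunit classes. Of the 11 members at an unadjusted p under 0.05, 7 belonged to the first class, 3 to the second, 1 to the third and 0 to the fourth. Differences between classes were not tested.

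In the small subunit, Mrps12 stood out. Mrps12 codes for the relative of bacterial S12, a protein of the decoding centre. Its TPM was 167, 110 and 104 with PBS and 42.9, 37.0 and 46.4 with dopamine, 127 ± 34.6 against 42.1 ± 4.75 (SD, n = 3 each). No dopamine library came near the lowest PBS library. The log2 change was -1.54 with SE 0.29 (relative -2.04; limma, adjusted p = 0.0832). Mrps16, another relative of a bacterial protein, was at 46.8, 68.9 and 51.6 TPM with PBS and 32.7, 42.5 and 26.3 TPM with dopamine, without overlap (relative -1.21; limma, adjusted p = 0.212). Mrps6 was at 94.1, 104 and 88.6 TPM against 87.3, 70.9 and 64.7 TPM, the groups being separated by a narrow gap (limma, adjusted p = 0.377). Mrps21 and Mrps14 overlapped between groups, with relative changes of -0.93 and -1.11. Mrps15, Mrps23, Mrps26 and Mrps28 had log2 changes of -0.05, 0.07, -0.16 and -0.20 before setting them against the median, and their groups overlapped.

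Of the 17 members lower without overlap, 8 and 5 were in the 2 large-subunit classes, which hold 30 and 21 of the 78 members. Mrpl36 codes for the relative of bacterial L36 in the large subunit. It was at 87.6, 94.4 and 69.3 TPM with PBS and at 46.4, 30.8 and 37.1 TPM with dopamine, 83.8 ± 13.0 against 38.1 ± 7.84 (SD, n = 3 each). All dopamine libraries lay below all PBS libraries, with a log2 change of -1.12 and SE 0.30 (relative -1.62; limma, adjusted p = 0.0966). Mrpl54, specific to mitochondria, was at 152, 201 and 200 TPM with PBS and 96.5, 117 and 99.7 TPM with dopamine, 184 ± 28.1 against 104 ± 11.1, again without overlap (relative -1.30; limma, adjusted p = 0.106).

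Mrpl13 was at 42.6, 37.5 and 31.5 TPM with PBS and 16.2, 8.95 and 21.2 TPM with dopamine (relative -1.78; limma, adjusted p = 0.119). Mrpl51 was at 36.7, 47.7 and 44.4 TPM against 31.8, 8.50 and 15.1 TPM, where the first dopamine library came close to the PBS libraries (relative -1.85; limma, adjusted p = 0.137). Mrpl12 is the relative of the bacterial stalk protein L7/L12 and is also known to bind the mitochondrial RNA polymerase. It was at 54.5, 71.9 and 53.9 TPM with PBS and 21.4, 44.0 and 25.4 TPM with dopamine (relative -1.52; limma, adjusted p = 0.138). Groups did not overlap in any of these 3 genes.

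Mrpl33, the most abundant member, had separated groups too, at 414 ± 31.8 against 279 ± 55.2 TPM (SD, n = 3 each; relative -1.08; limma, adjusted p = 0.143). Mrpl34 was at 126, 121 and 72.8 TPM with PBS and 69.8, 60.03 and 37.4 TPM with dopamine (relative -1.42; limma, adjusted p = 0.1498). Mrpl18, whose protein is also known as a carrier of 5S rRNA into mitochondria, was at 115, 114 and 64.0 TPM against 57.8, 47.5 and 59.3 TPM (relative -1.27; limma, adjusted p = 0.173). In both genes the third PBS library sat only slightly above the highest dopamine library. Mrpl57 (relative -1.20) and Mrpl21 (relative -1.12) likewise had separated groups, at 89.7 to 123 TPM against 43.5 to 89.1 TPM in Mrpl57 and 94.6 to 101 TPM against 46.9 to 84.7 TPM in Mrpl21.

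**Figure D2:**
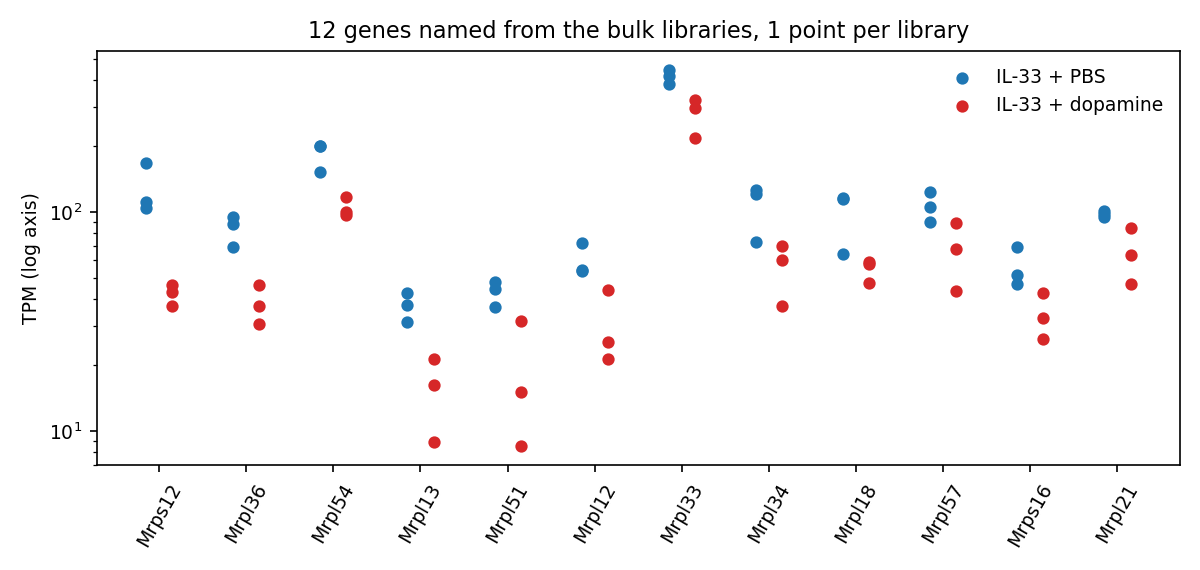
TPM of the 12 members named from the bulk comparison, on a log axis, 1 point per library, IL-33 plus PBS in blue and IL-33 plus dopamine in red. In each gene all 3 dopamine libraries lie below all 3 PBS libraries, which was a condition for naming them; the distance is widest in Mrps12 and narrowest in Mrpl57.

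Few members went the other way. Mrpl58 codes for a peptidyl-tRNA hydrolase that is built into the large subunit and frees stalled ribosomes. It was at 56.7, 68.6 and 59.4 TPM with PBS and 89.1, 69.5 and 73.7 TPM with dopamine, so its groups were separated upward (log2 change 0.32, SE 0.26; limma, adjusted p = 0.453). Relative to the median of all genes it was at -0.17. Mrps36, of the 2-oxoglutarate dehydrogenase complex, was at 65.0, 67.8 and 40.7 TPM against 98.0, 82.9 and 50.7 TPM, with overlap (relative -0.10). Mrpl19 spread from 3.93 to 33.8 TPM and Mrpl38 from 6.50 to 87.9 TPM within the dopamine group, wider than any difference between groups. Mrps30 was at 12.8 ± 1.46 against 12.8 ± 0.268 TPM (SD, n = 3 each).

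3 measured features of the libraries moved with these values. PBS library 2 detected the fewest genes, 9822 at 1 TPM or more against 10525 to 11745 in the other 5, and had the highest member level, 2.95 on the log2 scale above the median gene, against 2.06 and 2.32 in the other PBS libraries and 1.36 to 1.52 with dopamine. Without it the member median was -0.60 relative to all genes. 19 members lay lower without overlap, against 924 of 10966 genes, and 7 were lower at an unadjusted p under 0.05, against 346. Transcript length was the next feature. Protein-coding genes with a transcript of at most 1000 bp had a median relative change of -0.86 (584 genes), close to the -0.88 of the 24 members of that length. Above 1000 bp, genes had a median of 0.06 (9452 genes) and the 54 members one of -0.79. Across genes, Spearman's rho between change and length was 0.43 over all coding genes and 0.15 over the members; genes of a sample are not independent replicates. The 78 genes with symbols of cytosolic ribosomal proteins showed a median relative change of -0.82, with 78 of 78 below the all-gene median. The last feature was marker genes of other lymphocytes. Summed TPM of 12 T cell markers was 1159 to 1698 with PBS and 1717 to 2230 with dopamine, that of 9 NK cell and ILC1 markers 90.4 to 273 and 372 to 619, and that of 6 ILC3 markers, 5 of which the table holds, 13.4 to 71.0 and 97.7 to 221. Most of the T cell sum came from Trbc1 and Trbc2, and most of the NK cell and ILC1 sum from Gzma and Gzmb. In the hashtags Trbc2 was found in 68.2% to 84.0% of the sorted cells and Gzma in 44.7% to 49.7%. These sums therefore need not mark other cells. The 15 ILC2 markers summed to 3357 to 5410 TPM and 3790 to 5585 TPM, overlapping. Single ILC2 markers did differ: Il7r (74.4 to 164 against 307 to 419 TPM), Id2 (93.4 to 458 against 708 to 943 TPM), Rora, Icos, Thy1 and Ptprc were higher in every dopamine library, and Arg1 (627 to 1270 against 212 to 544 TPM) was lower in every one. Markers of epithelium (10.3 to 16.4 and 27.2 to 30.2 TPM) and endothelium (7.33 to 22.1 and 23.8 to 29.8 TPM) were separated as well, with 2 of 6 and 1 of 4 genes at 0 in every library, and 4 of 5 fibroblast markers were at 0 throughout. Sums for B cells, macrophages and monocytes, neutrophils, basophils and mast cells, and dendritic cells overlapped between groups. The part of gene number, length and marker genes in the change of the members was not tested.

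Partner genes that start within 1000 bp on the opposite strand lay nearer the all-gene median than the members beside them. Partner levels with PBS ran from 0.08 TPM for Zfp189 to 6400 TPM for Fau, and a low level shrinks a log2(TPM + 1) change. Of 27 partner genes that are no member and were tested in bulk, 15 lay below the median change of all genes, with a median relative change of -0.06, whereas the members beside them had a median of -0.85. Sars2, beside Mrps12, had a relative change of -1.01 (limma, adjusted p = 0.427), and Ndufs6, beside Mrpl36, one of -1.29 (limma, adjusted p = 0.130). Apba3, beside Mrpl54, was at 0.24. The difference between partners and members was not tested.

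The rest of the mitochondrial translation pathway was read from lists of known genes, and none of their genes was called in bulk. Among 5 further mitochondrial ribosomal proteins with other symbols, 4 lay below the all-gene median (median relative change -0.67), and the exception was Ptcd3, at 0.56. Of 24 tested assembly factors of the ribosome, 17 were below (median -0.52); the rRNA methyltransferases Mrm1 and Mrm2 had unadjusted p-values of 0.0319 and 0.0346 in limma and relative changes of 0.69 and 0.79, and Malsu1 one of -2.58. Among 17 tested translation factors 12 were below (median -0.37), among 19 tested tRNA synthetases and amidotransferases 10 (median -0.09), with Vars2 at 1.40 and Hars2 at 1.21. Genes of mitochondrial transcription and DNA maintenance had a positive median of 0.39, 5 of 17 being below; the DNA topoisomerase Top1mt was at 0.95 and the nuclease Mgme1 at 1.15. Of 13 tested transcripts of mitochondrial DNA itself, which the ribosome translates or contains, 12 lay below the all-gene median (median -0.72), with mt-Atp6 at -1.26 and mt-Cytb at -0.86. In the dopamine hashtags the median of 13 tested transcripts was 0.01, with 8 above 0 and 5 below.

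IL-33 itself was compared with PBS in the hashtags, where all 78 members passed edgeR's filter. 1 member was called higher and 0 lower by edgeR's quasi-likelihood test with adjustment over 10506 genes, against 0.352% of all genes tested in each direction and 0.704% in either. 53 members were above 0 (49.7% of all genes) and 25 below (50.3%), with a median log2 change of 0.09 beside 0.00 over all genes. Cluster composition differed between these groups: cluster 5 held 2.57% and 3.07% of the cells with PBS and 22.02%, 8.88% and 11.7% with IL-33, and cluster 0 held 32.5% and 32.1% against 16.1%, 24.4% and 20.6%. Cluster 1 (8.36% and 23.3% against 26.2%, 27.8% and 27.2%) and cluster 4 (9.65% and 11.2% against 14.3%, 13.5% and 11.5%) were also separated upward. Cluster 2 was separated downward (26.4% and 19.0% against 13.7%, 15.4% and 16.9%), and cluster 3 overlapped. With the authors' clusters weighted equally the member median was 0.16 and that of all genes 0.19, and no member was called. In that setting the members did not lie above all genes, but the all-gene median had itself moved from 0.00 to 0.19. There cluster 5 of hashtag 1, with 8 cells and 51671 UMIs, weighed as much as any other cluster. The place of the members among all genes cannot be settled from this setting. At an unadjusted p under 0.05 there were 14 members higher, against 6.56% of all genes, and 2 lower, against 6.87%. Groups did not overlap in 29 members upward, against 20.9% of all genes, and in 6 downward, against 13.6%.

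The called member was Mrpl34, the relative of bacterial L34, whose gene lies at chr8:71464959-71465747 on the plus strand. Its sums were 25 and 74 UMIs in the PBS hashtags, 414, 215 and 308 in the IL-33 hashtags, and 188, 182 and 128 with dopamine. Scaled to 1000000 UMIs (CPM) these were 17.9 and 22.04, then 44.7, 36.9 and 35.8, then 28.2, 26.5 and 19.8 CPM. The PBS hashtags were low and the IL-33 hashtags high without overlap, at means of 19.96 and 39.1 CPM. Mrpl34 rose with IL-33 by 0.89 on the log2 scale (SE 0.17; edgeR, adjusted p = 0.0321). The call was lost without hashtag 1 (edgeR, adjusted p = 0.291), without hashtag 2 (0.153) and without hashtag 3 (0.0638), while the direction was the same in each.

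Other members with high rank in this comparison did not pass. Mrpl45, on chromosome 11, whose promoter with 3 NRF1 matches is shown above, is known to tether the ribosome to the inner membrane. It was at 16.5 and 17.3 CPM with PBS and 31.4, 26.6 and 29.1 CPM with IL-33 (log2 change 0.74; edgeR, adjusted p = 0.0570). Mrpl36 was at 17.9 and 28.0 CPM and then 42.2, 32.1 and 42.9 CPM (log2 change 0.65; edgeR, adjusted p = 0.144). Mrpl18 was at 40.1 and 37.5 CPM and then 57.5, 48.0 and 55.2 CPM (log2 change 0.45; edgeR, adjusted p = 0.1498). All IL-33 hashtags were above both PBS hashtags in these 3 genes. Mrps34 (0.59), Mrpl35 (0.46), Mrpl43 (0.37) and Mrpl30 (0.29) had log2 changes of the same sign and separated groups. Mrpl23 was the clearest in the other direction, at 122 and 123 CPM with PBS and 94.3, 103 and 103 CPM with IL-33 (log2 change -0.33; edgeR, adjusted p = 0.139). Mrps6, Mrpl38 and Mrpl13 also had all IL-33 hashtags below both PBS hashtags. Mrps12 was at 46.5 and 35.4 CPM with PBS and 39.99 to 48.7 CPM with IL-33, overlapping.

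Dopamine added to IL-33 called no member in the hashtags. In this fit of 3 against 3 hashtags over 10559 genes, edgeR called 3 genes, 0.0284%, and the smallest adjusted p of a member was 0.169, for Mrpl34. 57 members had a log2 change below 0 (49.9% of all genes) and 21 above (50.1%), with a median of -0.09 against 0.00 over all genes. At an unadjusted p under 0.05, 13 members were lower, against 4.66% of all genes tested, and 2 were higher, against 4.81%. Groups did not overlap in 11 members downward (6.93% of all genes) and 4 upward (7.81%). Both hashtag comparisons share the IL-33 hashtags and are not independent.

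Mrpl34 had the largest change, from the 35.8 to 44.7 CPM of IL-33 to the 19.8 to 28.2 CPM of dopamine given above, a log2 change of -0.66 with SE 0.13 (edgeR, adjusted p = 0.169). DESeq2 called this gene alone among the members (adjusted p = 0.0201). Mrps16 was at 91.8, 81.5 and 93.1 CPM with IL-33 and 80.2, 72.7 and 64.5 CPM with dopamine (log2 change -0.30; edgeR, adjusted p = 0.398). Mrpl14 was at 70.8, 69.1 and 69.4 CPM against 58.5, 59.5 and 50.3 CPM (log2 change -0.31; edgeR, adjusted p = 0.331). The groups of all 3 genes were separated. Mrpl35, Mrps23 and Mrpl19 had separated groups too, with log2 changes of -0.32, -0.35 and -0.34. Mrpl18 and Mrpl45, at -0.35 and -0.37, overlapped through hashtag 6. 2 members were higher at an unadjusted p under 0.05. Mrpl23 was at 94.3, 103 and 103 CPM with IL-33 and at 117, 110 and 117 CPM with dopamine, every dopamine hashtag above every IL-33 hashtag (log2 change 0.20; edgeR, adjusted p = 0.494). Mrpl50 was the other, at 14.7 to 16.9 against 17.6 to 22.8 CPM (log2 change 0.40; edgeR, adjusted p = 0.411). Most of the bulk leaders showed little here: Mrps12 was at 46.9, 48.7 and 39.99 CPM against 43.5, 41.0 and 30.9 CPM, overlapping, and Mrpl36, Mrpl54 and Mrpl13 had log2 changes of -0.04, 0.04 and -0.03.

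**Figure D3:**
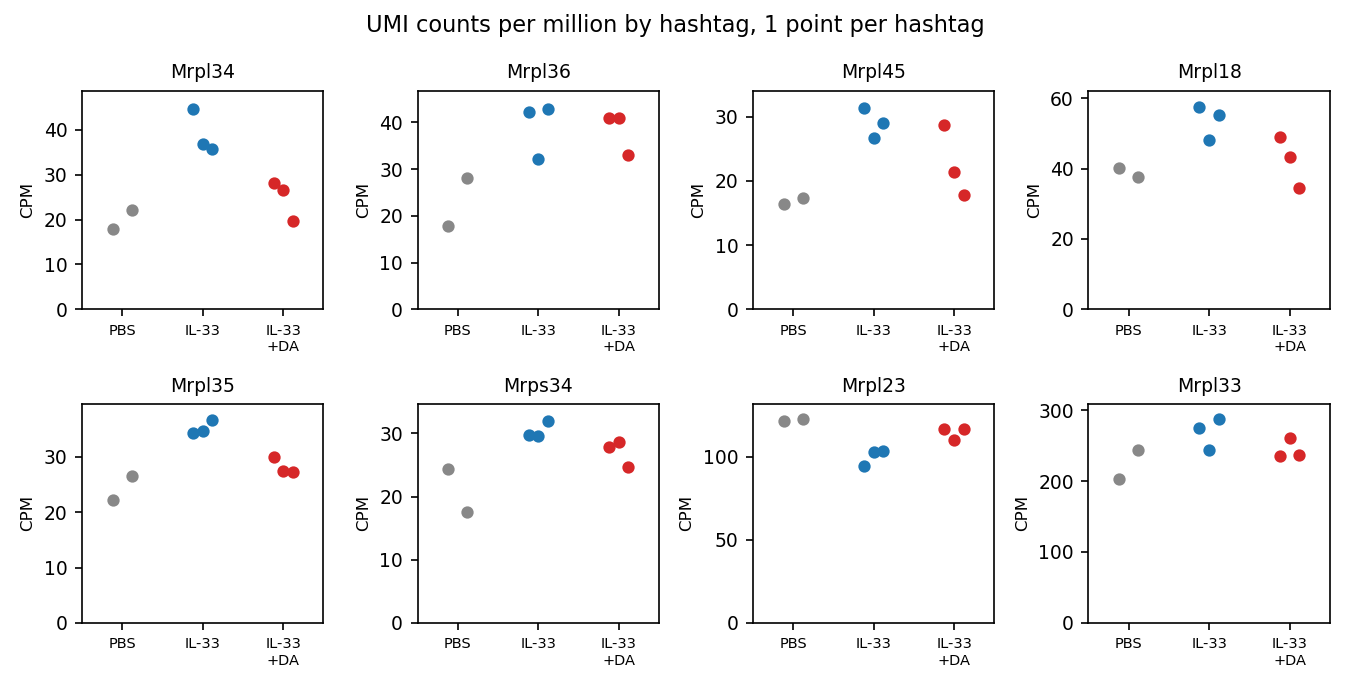
CPM of 8 members by hashtag, 1 point per hashtag, for PBS (hashtags 1 and 2), IL-33 (3 to 5) and IL-33 plus dopamine (6 to 8). Mrpl34 lies at 17.9 and 22.04 CPM with PBS, 35.8 to 44.7 CPM with IL-33 and 19.8 to 28.2 CPM with dopamine, while Mrpl23 is lowest with IL-33.

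Set side by side across members, the bulk and hashtag changes with dopamine were loosely related. Spearman's rho over the 78 members was 0.16, a description across genes that share libraries. 56 members were below the all-gene median in bulk and below 0 in the hashtags. Only 3 members, Mrpl34, Mrpl18 and Mrpl27, were lower at an unadjusted p under 0.05 in both. Mrpl27 was at 53.9, 43.7 and 32.2 TPM with PBS and 7.23, 34.8 and 21.4 TPM with dopamine, and at 13.8, 12.4 and 16.2 CPM against 11.4, 11.1 and 7.25 CPM, from few counts; it was singled out after its values were seen. Levels were more alike than changes, with a Spearman rho of 0.80 between mean TPM and mean CPM. The bulk libraries were female and read along whole transcripts, the hashtags male and read at 3′ ends.

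**Figure D4:**
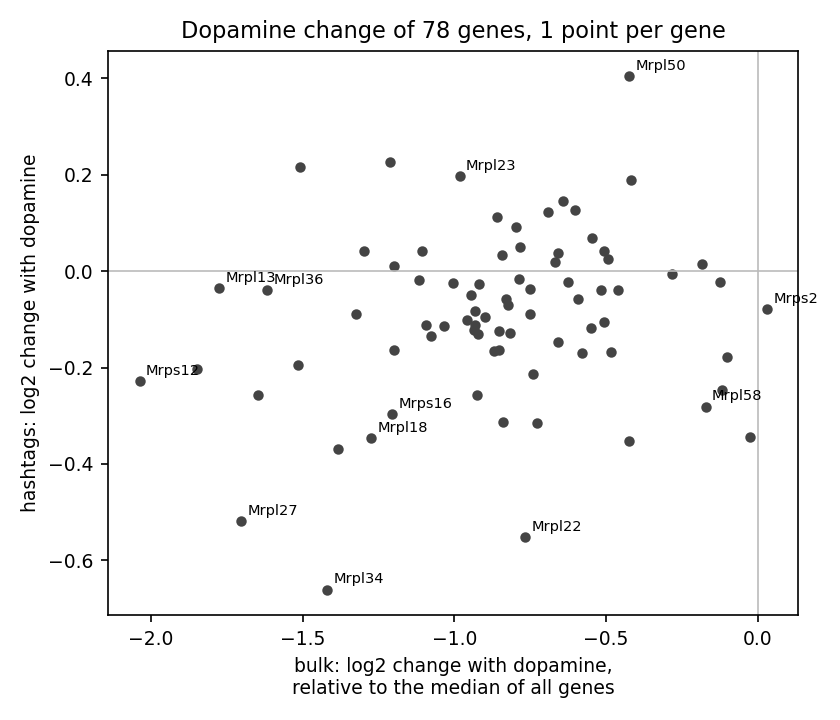
Dopamine change of each of the 78 members in bulk, as log2 change relative to the median of all genes (x axis), against the log2 change in the hashtags (y axis), 1 point per gene. Nearly all points lie left of 0 and most lie below 0; Mrpl34 is low on both axes, whereas Mrps12 is lowest in bulk at -2.04 and at -0.23 in the hashtags.

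Among the authors' 6 clusters of cells, numbered 0 to 5, the share of UMIs in the members differed in a repeated order. Cluster 4 had the highest share in 7 of 8 hashtags, between 0.378% and 0.416%, and cluster 1 in the other one. Cluster 3 had the lowest share in 7 of 8, between 0.251% and 0.298%. Clusters 0 and 2 lay between 0.279% and 0.334%, and cluster 5 spread widest, from 0.310% to 0.394%. The gene means that follow were taken over hashtags 3 to 8 only, without the PBS hashtags. By these means, 43 members had their highest CPM in cluster 4 and 45 their lowest in cluster 3. Mrps12 averaged 59.1 CPM in cluster 4 and 29.4 CPM in cluster 2, and Mrpl34 44.6 CPM in cluster 5, 43.4 CPM in cluster 4 and 21.96 CPM in cluster 3. Mrpl23 varied less, from 93.1 CPM in cluster 5 to 115 CPM in cluster 0. The clusters were made from these same cells, so this is a description with no test, and median UMIs per cell differed between clusters, reaching 9425 in cluster 5.

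**Figure D5:**
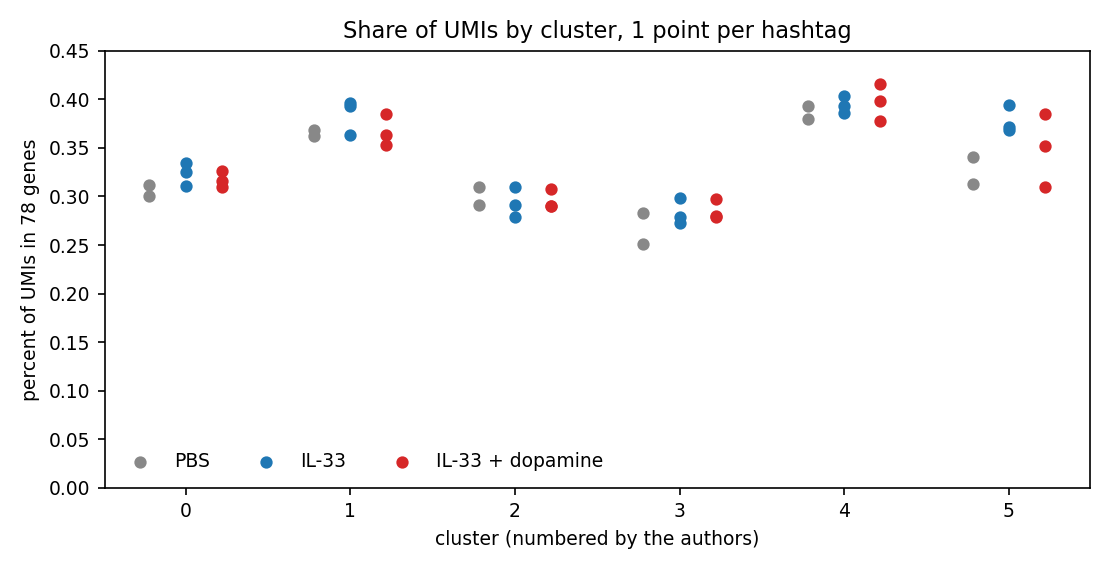
Percent of UMIs in the 78 members by author cluster, 1 point per hashtag, coloured by treatment. Clusters 4 and 1 lie highest and cluster 3 lowest, and within a cluster the 3 treatments overlap except in cluster 5, where the PBS points, from 8 and 23 cells, lie below the IL-33 points.

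The hashtags differed in how many cells each cluster held. Cluster 1 made up 26.2%, 27.8% and 27.2% of the cells with IL-33 and 15.7%, 21.6% and 11.7% with dopamine, and cluster 3 made up 7.74%, 10.1% and 11.9% against 11.4%, 17.0% and 20.1%. Cluster 1 was separated between the groups and cluster 3 overlapped. Cluster 0 was separated upward, at 16.1%, 24.4% and 20.6% against 30.2%, 25.3% and 30.4%, and cluster 5 overlapped with a wide spread, at 22.02%, 8.88% and 11.7% against 6.71%, 14.2% and 1.76%. With all clusters weighted equally, the median dopamine change of the members was -0.01, against -0.09 with cells summed, and 37 members were above 0. Within single clusters edgeR called 0 members in each of the 6, against 0.0388%, 0.075%, 0%, 0%, 0.0548% and 0.266% of all genes tested in clusters 0 to 5. At an unadjusted p under 0.05 the members lower were 3 of 74 tested in cluster 0 (3.35% of all genes), 5 of 77 in cluster 1 (2.6%), 4 of 71 in cluster 2 (3.05%), 1 of 68 in cluster 3 (2.90%), 3 of 74 in cluster 4 (3.56%) and 9 of 73 in cluster 5 (3.88%). DESeq2 also called 0 in each cluster. Mrpl34 was lower in all 6 clusters, by -0.66, -0.43, -0.39, -0.63, -0.57 and -0.41 on the log2 scale in the order of their numbers, with adjusted p-values from 0.462 to 0.891 in edgeR. In cluster 5 the lowest p belonged to Mrpl19 (log2 change -1.03; edgeR, adjusted p = 0.142). The difference between clusters in the dopamine change was tested directly, and 0 of 78 members passed in edgeR, where 0.0686% of 8744 genes were called; 3 members, Mrpl50, Mrpl9 and Mrpl19, had an unadjusted p under 0.05, against 6.05% of all genes.

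Members of the pathway lists were read in the hashtags as well, and no gene of these lists was called by edgeR in either comparison. With dopamine, 16 of 25 assembly factors were below 0 (median -0.15), led by the pseudouridine synthase Rpusd4 at -0.60 and Tmem223 at -0.46, and 11 of 15 translation factors (median -0.09), among them the RNA-binding protein Slirp at -0.36. With IL-33 against PBS, 17 of 25 assembly factors (median 0.08) and 10 of 15 translation factors (median 0.22) were above 0, while 10 of 13 transcripts of mitochondrial DNA were below 0 (median -0.16), with mt-Nd1 at -0.24 (edgeR, adjusted p = 0.0631). Marker sums of several other cell types differed with treatment in the hashtags. Summed NK cell and ILC1 markers were 253 and 244 CPM with PBS, 195, 210 and 209 CPM with IL-33 and 215, 211 and 231 CPM with dopamine, separated in both comparisons. Epithelial markers were 135 and 119, then 98.9, 104 and 101, then 133, 109 and 149 CPM, also separated in both. Gzma gave most of the NK cell and ILC1 sum. Scgb1a1, found in 29.9% to 34.8% of the cells of each hashtag, gave most of the epithelial sum. Scgb1a1 itself overlapped between IL-33 (73.4, 78.9 and 78.9 CPM) and dopamine (82.1, 78.7 and 101.7 CPM). Epcam was separated between these groups, at 23.3, 24.9 and 19.4 CPM against 49.7, 29.5 and 45.7 CPM. Sftpc and Sftpb reached at most 3.28 and 1.43 CPM. Neutrophil markers were at 0 with PBS, 0.515 to 16.6 CPM with IL-33 and at most 0.309 CPM with dopamine. Macrophage and monocyte markers were lower with IL-33 (2.697 to 3.95 CPM) than with PBS (4.76 and 6.44 CPM), and dendritic cell markers higher with dopamine (14.5 to 16.9 CPM) than with IL-33 (9.71 to 11.2 CPM). T cell markers (934 to 1204 CPM), ILC3 markers (6.35 to 34.3 CPM) and those of ILC2s, B cells, basophils and mast cells, and endothelium overlapped in both comparisons, and fibroblast markers summed to 0. The part of these markers in the values of the members was not tested. Depth per cell was not equal, from a median of 4201 UMIs in hashtag 8 to 5692 in hashtag 3, with medians of 13 to 20 UMIs per cell in members; its part in the shares was not tested.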

How the data were processed

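Bulk values are TPM that the authors deposited per gene and library; reads went through cutadapt 2.10, STAR 2.7.5c and RSEM 1.3.3 with build mm10, per the submitters' processing notes, which give no settings. Single-cell values are UMI counts per gene and cell as deposited, from Cell Ranger 6.1.1 and Seurat 4.0.2, per the submitters' processing notes; the deposited cell table gives each cell's hashtag, treatment, cluster and percent of mitochondrial UMIs, at most 7.50%. The sequencing depth of the bulk libraries is unknown, since TPM keep none; the hashtags held 1397576 to 9268932 UMIs. The sources used here do not say how doublets were treated, and no caller was run.

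From these, TPM were tested with limma 3.58.1 (trend, log2(TPM + 1), at least 1 TPM in at least 3 of 6 libraries) in R 4.3.3. UMIs were summed per hashtag, since cells are not replicates, and tested with edgeR 4.0.16 (TMM, filterByExpr, quasi-likelihood); DESeq2 1.42.0 was an alternative. P-values were adjusted (Benjamini-Hochberg) over all genes tested, at 0.05. Simulated data with 200 changed genes were run through the edgeR step, on 10496 and 10482 genes of the comparison of dopamine with IL-33. It called 100% of the genes changed by a log2 of 1 and 56% of those changed by 0.5. The bulk limma step, on 10892 genes, called 100% of 200 genes changed by 2. Its simulated libraries had less spread than the real ones, and both simulations changed well-expressed genes only. These rates need not hold for the real samples. Same-numbered bulk libraries did not deviate together (correlations 0.0186, -0.0710 and -0.00177), so the numbers were not used as pairs. Genome positions come from GENCODE's mm10 annotation and promoters from RefSeq. Protein sequences were not used here.

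Members, classes and lists were chosen with earlier results of these data known. Genes were named by a fixed rule: in bulk up to 12 members lower without overlap at a mean of at least 10 TPM, by smallest p; in each hashtag comparison up to 8 members per direction at a mean of at least 20 CPM, called first, then by p; the 5 highest by TPM; Mrpl12, Mrps12, Mrpl36, Mrps36, Mrpl58, Mrps30 and the S18 relatives; and genes of smallest p from each list. Alternatives were other pseudocounts, filters, scalings, weights, tools, cell subsets and leaving out each library or hashtag.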

Additional observations from a re-analysis of the deposited data

Results flagged for a closer look

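With dopamine under IL-33, Mrpl23 and Mrpl58 moved in opposite directions in the deposited TPM and in the hashtags. Mrpl23 was lower in every bulk dopamine library than in any PBS library (134, 134 and 122 TPM against 107, 74.3 and 99.3 TPM, female mice) and higher in every dopamine hashtag than in any IL-33 hashtag (log2 change 0.20, male mice). Mrpl58 was higher in every bulk dopamine library, as were 23.5% of all genes. Relative to the median of all genes its bulk change was -0.17, and no member was higher without overlap after median-of-ratios scaling or quantile normalization. Mrpl58 was lower in every dopamine hashtag (log2 change -0.28), at 34.0, 31.7 and 37.4 CPM against 29.6, 28.1 and 27.5 CPM. The differences between the datasets were not tested; sex and library method both differ between them and cannot be told apart.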

How the results depend on the processing

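In bulk, 1 member was called with median-of-ratios scaling (Mrps12, limma, adjusted p = 0.0484), where 2 genes were called higher and 2 lower in all. Quantile normalization called 1 (10 genes higher and 11 lower in all) and array weights 7 (2439 genes higher and 361 lower). Leaving out 1 library gave 0 to 2 members, the 2 without PBS 1, where 1429 genes were called higher and 107 lower. Members lower without overlap numbered 44 with median-of-ratios scaling (15.2% of all genes) and 38 with quantile normalization (13.5%). Leaving out 1 library they numbered from 19 (924 of 10966 genes, without PBS 2) to 34 (1176 of 10911 genes, without PBS 3). With detected genes per library as a covariate the median relative change was -0.35, and leaving out 1 library it ran from -0.94 to -0.60. The fit with the replicate number as a block called 0 members, with a median of -0.83, and changed no call. Members below the all-gene median numbered 62 with the covariate and 71 to 78 in the other alternatives.

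Some members changed sign in their relative bulk change. Mrpl19 went to 0.16 with a pseudocount of 5, 0.21 with no filter, 0.22 with array weights, 0.61 with the covariate, and from -0.58 without dopamine 2 to 0.34 without PBS 2 and 0.81 without dopamine 1. Mrpl58 went to 0.014, 0.059, 0.078 (quantile), 0.52 (covariate), and from -0.40 without PBS 1 to 0.083 without PBS 2. Mrps36 went to 0.080, 0.13, 0.12 (quantile), 0.14 (array weights), 0.53 (covariate), and from -0.32 without dopamine 1 to 0.20 without dopamine 3 and 0.21 without PBS 2. With the covariate Mrpl35 was at 0.49, Mrps15 at 0.067, Mrps23 at 0.13 and Mrps34 at 0.46; Mrpl38 ran from -1.30 without dopamine 2 to 0.46 without dopamine 1.

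In the hashtags, DESeq2 called 1 member with dopamine (Mrpl34), and equal weight for clusters gave a median of -0.0060. For IL-33 against PBS, 5 members were called with no filter, all higher, as were 167 of 15034 genes. The members called were 0 with cells of intermediate UMI count, 0 in 1 fit of 8 hashtags and 0 with clusters of equal weight. In the last setting the all-gene median moved to 0.19 and that of members to 0.16. Leaving out 1 hashtag gave 0 to 3 members, the 3 without hashtag 4, where 73 of 10386 genes were called higher. DESeq2 called 0 and gave no adjusted p for Mrpl34. Mrps14 turned to -0.017 without hashtag 4 and -0.016 without hashtag 8, and Mrps26 to -0.040 without hashtag 6 with dopamine; Mrpl38 turned to 0.0509 with equal weights and Mrps15 to 0.039 without hashtag 2 with IL-33. The cause was not tested. Depth limits the members of low UMI count, and having 2 PBS hashtags, the smaller with 311 cells, limits the comparison with IL-33.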
